A study of Bos taurus and Sus scrofa with 6 samples.

Results

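DNA methylation at CpG sites is written by the DNMT family and removed by way of the TET family. DNMT1 copies the parental pattern onto the new strand after replication, and UHRF1 binds hemimethylated DNA and brings DNMT1 to it. DNMT3A and DNMT3B methylate sites that carried no mark, with DNMT3L as a cofactor that has no catalytic activity of its own. TET1, TET2 and TET3 oxidise 5-methylcytosine, which begins its removal. In the male germ line the marks are erased in primordial germ cells and set again in the cells that follow them. The levels of these 8 genes were measured here in germ cells, dividing somatic cells and resting somatic cells of the cattle and pig testis. The members were taken by gene symbol, with earlier results of these data known. Of the 8 symbols, 7 were matched in the cattle table of 19994 genes and 7 in the pig table of 22694 genes, and DNMT3L was not analysed here.

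Testes of 3 Holstein cattle (4.5 months old) and 3 mixed breed pigs (3 months old) were removed at castration and digested with collagenase IV and trypsin-EDTA. The labels name no engineered allele and no treatment, and each animal gave 1 droplet library with unique molecular identifiers (UMIs). The labels give testis number 2 to 2 libraries of each species, while the study's methods count 3 animals, so the p-values measure the spread between these libraries. The series set out to find genes whose expression is shared by male germ cells of several mammals. After calling cells and removing doublets, 17482 cattle cells (3444 to 8138 per animal, median 789 to 4461 UMIs per cell) and 9206 pig cells (2236 to 3808 per animal, median 890 to 5870 UMIs) were kept. Libraries of the same species shared 22 to 61 cell barcodes in cattle and 9 to 17 in pigs, where independent draws of the barcodes would give 27.6 to 65.1 and 9.6 to 16.3.

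Clusters were named "X-like" from marker genes. Germ-like cells numbered 520 in cattle (83, 219 and 218 in animals 1, 2 and 3) and 1568 in pigs (647, 221 and 700). Levels are given as UMIs of a gene for each 1e+06 UMIs of the sum (CPM). The summed level of the 16 germ cell markers matched, from the list that named these cells, was 2873 to 3288 CPM in the germ-like cells of the cattle and 2616 to 2793 CPM in those of the pigs. It was at most 145 CPM in the somatic classes of cattle and at most 224 CPM in those of pigs. The germ cell helicase gene DDX4 reached at most 17.9 CPM in any somatic class of any animal. Germ-like sums also held UMIs of somatic markers. In cattle the 6 Leydig markers matched summed to 591 to 6190 CPM in germ-like and 7516 to 56285 CPM in resting cells. In pigs the 10 Sertoli markers matched summed to 414 to 539 CPM in germ-like and 521 to 2017 CPM in resting cells. Somatic cells were called dividing where they held UMIs of at least 3 of 48 genes of replication and mitosis and resting where they held at most 1. This gave 609 dividing and 15324 resting somatic cells in cattle, and 793 and 5572 in pigs. None of the 8 members is on that list of 48. Dividing cells were deeper than resting cells, with medians of 975 to 6477.5 against 773 to 4208 UMIs in cattle and 998 to 5555 against 835 to 4533.5 in pigs, and the part of this difference in the results was not tested. Germ-like cells were deeper still in every animal, with medians of 3514 to 16908 UMIs in cattle and 2811 to 14976 in pigs. The part of that depth in the germ-like comparisons was not tested either. Counts were summed per animal and class and each animal is 1 replicate (n = 3 per species). Where the values of 2 classes are said not to overlap, the share of all genes that separate in this way was not counted.

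UHRF1 and DNMT1 are the pair that acts on newly replicated DNA, and both genes lie on pig chromosome 2 (RefSeq annotation of Sscrofa11.1, the build of the pig files). DNMT1 spans chr2:68981564-69040364 and UHRF1 chr2:73898061-73937727, both on the minus strand. The first 2190 bases of the UHRF1 gene overlap the start of ARRDC5, which lies on the plus strand, and 155 of these bases are exonic in both. Only 1 of the 3 annotated UHRF1 transcripts reaches into ARRDC5. Whether the counting used strand is not given in the sources used here, and how UMIs in that overlap were assigned was not tested. The pig files hold Ensembl gene identifiers, so the exons that were counted may differ from those of RefSeq. Transcript starts at most 1000 bases from the next were grouped, and the most upstream start of the largest group was used. The 250 bases before it are shown for the pair because the results turn on these genes. They are given 5′ to 3′ on the coding strand, with every CG dinucleotide, the site these proteins act on, in capitals. The DNMT1 window is chr2:69029834-69030083, and the group of starts behind it holds 9 of 10 transcripts, which need not share that start. The UHRF1 window is chr2:73931858-73932107, and its group of starts holds 2 of 3 transcripts.
DNMT1: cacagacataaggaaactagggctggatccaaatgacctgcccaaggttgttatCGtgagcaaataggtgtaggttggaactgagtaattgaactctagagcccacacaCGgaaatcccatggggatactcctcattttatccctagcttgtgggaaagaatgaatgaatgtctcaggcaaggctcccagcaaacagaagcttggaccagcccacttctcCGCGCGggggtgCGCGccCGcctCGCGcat
UHRF1: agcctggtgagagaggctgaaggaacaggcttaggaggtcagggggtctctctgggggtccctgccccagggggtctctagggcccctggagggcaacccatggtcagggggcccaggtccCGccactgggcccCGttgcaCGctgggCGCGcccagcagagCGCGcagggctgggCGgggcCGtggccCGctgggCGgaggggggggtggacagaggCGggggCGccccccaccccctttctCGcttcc

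The DNMT1 window held 10 CG dinucleotides at 52.4% GC and the UHRF1 window 14 at 74.4% GC, beside a median of 12 at 58% GC over 19559 promoters of protein-coding genes. In DNMT1 the CG dinucleotides cluster next to the start. The E2F motif in its forms TTTCCCGC, TTTGGCGC, TTTGCCGC and TTTCGCGC was searched on both strands. Neither window held any of these letters, which occur in 1.43%, 0.598%, 0.435% and 0.414% of all promoter windows of that length. The other pig genes lie at chr3:113501972-113609148 (DNMT3A, plus strand), chr17:36345715-36386076 (DNMT3B, plus), chr14:71675671-71812732 (TET1, plus), chr8:116413253-116546976 (TET2, minus) and chr3:68918896-69020406 (TET3, minus).

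Whether the maintenance pair follows division was asked first in somatic cells. UHRF1 was the member with the clearest change, being close to 0 in resting cells and present in dividing cells of all 6 animals. In cattle UHRF1 stood at 249, 194 and 60.0 CPM in the dividing somatic cells of animals 1, 2 and 3, and at 4.86, 1.41 and 0.970 CPM in their resting somatic cells. In pigs it stood at 98.7, 42.8 and 41.3 CPM in dividing and at 3.06, 2.08 and 2.58 CPM in resting somatic cells. The groups did not overlap in either species. The log2 fold change was 6.04 ± 0.65 (SE, adjusted p = 9.15e-05) in cattle, and in pigs 4.25 ± 0.45 (adjusted p = 0.00074) in the quasi-likelihood test of edgeR, with p-values adjusted over all genes by the Benjamini-Hochberg method as they are throughout. UHRF1 was called in 14 of 15 alternatives in each species. Over them its adjusted p ran from 1.86e-75 to 1 in the cattle and from 1.85e-14 to 0.295 in the pigs.

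DNMT1 was also higher in dividing than in resting somatic cells of every animal, but by less, and its call depended on the model and, in cattle, also on the scaling and on how dividing cells were defined. In cattle DNMT1 was at 116, 167 and 70.7 CPM in dividing cells and at 46.9, 43.7 and 38.0 CPM in resting cells of animals 1, 2 and 3. In pigs the values were 260, 172 and 150 CPM in dividing and 77.1, 91.7 and 55.0 CPM in resting cells. The lowest dividing value exceeded the highest resting value in both species, a pattern that was not counted over all genes. On the log2 scale the difference was 1.15 ± 0.32 (adjusted p = 0.169) in cattle, and in pigs 1.15 ± 0.30 (adjusted p = 0.217), neither past the threshold of 0.05. With the animal as a block, since dividing and resting sums with 1 number come from 1 animal, the values were 1.13 ± 0.26 (adjusted p = 0.00048) and 1.14 ± 0.25 (adjusted p = 0.0297), both past it. Of 15 alternatives, 5 called DNMT1 in cattle (adjusted p from 0.00048 to 1) and 2 did so in pigs (0.022 to 1).

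The other members were not called between dividing and resting somatic cells. DNMT3A differed by -0.08 (log2) in cattle and 0.08 in pigs, TET1 by -0.04 and -0.14, TET2 by -0.68 and -0.23, and DNMT3B by 0.87 in pigs. Of the 6 members tested in each species, 1 was thus higher in dividing cells, beside 1.38% of all genes tested in cattle and 0.92% in pigs. With the animal as a block, 2 members were higher, beside 2.73% and 1.4% of all genes.

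**Figure D1:**
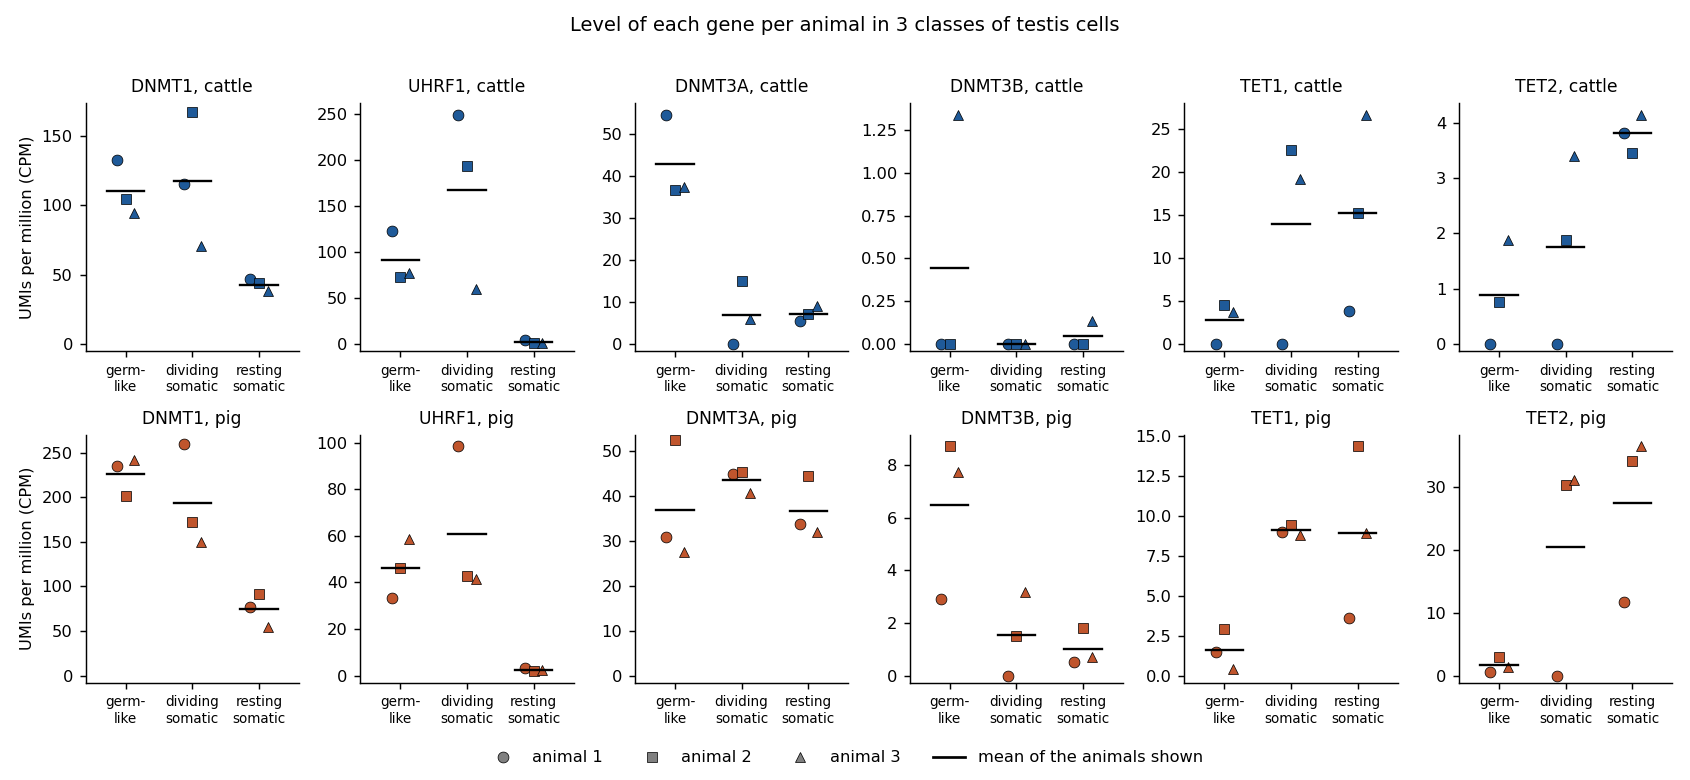
Level of 6 members, in a panel each (CPM on the vertical axis), in germ-like, dividing somatic and resting somatic cells of cattle and pigs, 1 point per animal with a bar at the mean of the animals shown. UHRF1 is near 0 CPM in resting cells of all 6 animals (0.970 to 4.86) and 33.2 CPM or more in germ-like and dividing cells, while the means of TET1 and TET2 are lowest in germ-like cells.

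The same comparison was made within the myoid-like and the Sertoli-like cells, each a class of several clusters whose mix may itself differ between dividing and resting cells. Within myoid-like cells UHRF1 was higher in dividing cells by 6.16 (log2, adjusted p = 7.65e-07) in cattle, and in pigs 5.56 (adjusted p = 3.62e-06). Within Sertoli-like cells of pigs it was higher by 3.64 (adjusted p = 0.00267). There it ran from 5.80 to 74.5 CPM in dividing and from 2.14 to 2.99 CPM in resting cells. The lowest dividing value was that of pig 3, which gave 29 such cells. In that animal DNMT1 was at 46.4 CPM in dividing and 45.9 CPM in resting Sertoli-like cells. UHRF1 was not higher within Sertoli-like cells of cattle, with 0.36 (adjusted p = 1). Those 92 cells came from cattle 2 (8 cells) and cattle 3 (84 cells) and held 0 and 1 UMI of UHRF1, although each held UMIs of at least 3 genes of the division list. DNMT1 differed by -0.16 (log2) in the same cattle cells. In pigs, when somatic cells were instead called dividing by cluster, 83 cells qualified and UHRF1 differed by 1.72 (adjusted p = 0.295). These were 31, 51 and 1 cells of pigs 1, 2 and 3, so the sum of pig 3 was 1 cell with 6744 UMIs.

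Dividing somatic cells were also split by whether genes of S phase or of mitosis led their division UMIs, a split made after the data had been seen and given without a test. DNMT1 was higher in the cells led by S-phase genes in all 6 animals. In cattle these cells held 278, 233 and 83.0 CPM of DNMT1, against 102, 145 and 66.8 CPM in cells led by mitotic genes. In pigs the values were 535, 239 and 212 CPM against 200, 143 and 125 CPM. UHRF1 pointed the same way in all 6 animals, at 556, 189 and 67.1 against 159, 182 and 60.0 CPM in cattle and at 214, 67.3 and 66.9 against 55.6, 32.5 and 32.2 CPM in pigs. In cattle 2 and 3 the difference in UHRF1 was small. The S-phase sum of cattle 1 rests on 10 cells and 10789 UMIs.

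Germ-like cells were compared next with resting somatic cells, which asks how far a germ cell departs from a cell at rest. UHRF1 was higher and TET1 and TET2 were lower in both species. In cattle 2 of 6 members tested were higher in germ-like cells (UHRF1, DNMT3A) and 2 lower (TET1, TET2), beside 27% and 22.4% of all genes. In pigs 3 of 6 were higher (UHRF1, DNMT1, DNMT3B) and 2 lower (TET1, TET2), beside 19.3% and 18.7%. These backgrounds are large, so a call by itself sets a member little apart from other genes. Scaling by library size alone raised the share of calls that were higher in germ-like cells from 54.7% to 77.7% in cattle and from 50.8% to 61.7% in pigs, and moved the median gene by 0.86 and 0.26 (log2).

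UHRF1 in germ-like cells stood at 123, 72.3 and 77.4 CPM in cattle 1, 2 and 3 and at 33.2, 46.0 and 58.8 CPM in pigs 1, 2 and 3. All 6 values were more than 10 times the resting somatic value of the same animal. Over resting cells the log2 fold change was 4.62 ± 0.62 (adjusted p = 4.68e-05) in cattle, and in pigs 3.96 ± 0.43 (adjusted p = 0.000288), and it was called in all 12 alternatives in both species. In cattle barcodes with at most 50 UMIs, which hold free RNA rather than cells, UHRF1 was at 13.8 CPM, above its level in resting somatic cells (mean 2.41) and below that in germ-like cells.

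DNMT1 in germ-like cells stood at 133, 104 and 94.3 CPM in cattle and at 236, 201 and 242 CPM in pigs. Every germ-like value was above every resting value of the same species. In pigs the log2 fold change was 1.34 ± 0.30 (adjusted p = 0.00614), called in all 12 alternatives. In cattle it was 0.43 ± 0.31 (adjusted p = 0.27), and 1.35 (adjusted p = 0.00256) by library size alone, the only call among 12 alternatives, whose adjusted p reached 0.446. The call in cattle therefore turns on the scaling. Resting cattle cells were close to the free RNA of the same libraries for DNMT1, at 38.0 to 46.9 CPM against 36.1 CPM.

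Germ-like and dividing somatic cells were then set against each other. In cattle UHRF1 differed by -1.42 ± 0.53 (germ-like minus dividing, log2, adjusted p = 0.0514) and DNMT1 differed by -0.72 ± 0.33 (adjusted p = 0.0978), neither called. With the animal as a block both were called, at -1.23 (adjusted p = 1.28e-05) for UHRF1 and -0.67 (adjusted p = 0.0234) for DNMT1. Over 13 alternatives the adjusted p ran from 1.28e-05 to 0.317 for UHRF1 and from 0.0177 to 0.852 for DNMT1. In CPM the direction was not the same in every animal. DNMT1 was higher in germ-like cells of 2 cattle and lower in 1, with means of 111 against 118 CPM in dividing cells. UHRF1 was higher in 1 and lower in 2, with means of 90.8 against 168 CPM. The log2 difference of DNMT1 ran from -0.95 to -0.09 over the alternatives. In pigs neither was called, with 0.20 ± 0.30 (adjusted p = 0.66) for DNMT1 and -0.29 ± 0.39 (adjusted p = 0.6) for UHRF1. Over all members, 1 of 6 was higher (DNMT3A) and 1 lower (TET1) in cattle, beside 18.3% and 17.2% of all genes, and 0 were higher and 2 lower (TET1, TET2) in pigs, beside 11.8% and 13.8%. By library size alone the share of calls that were higher rose from 51.4% to 73.8% in cattle.

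**Figure D2:**
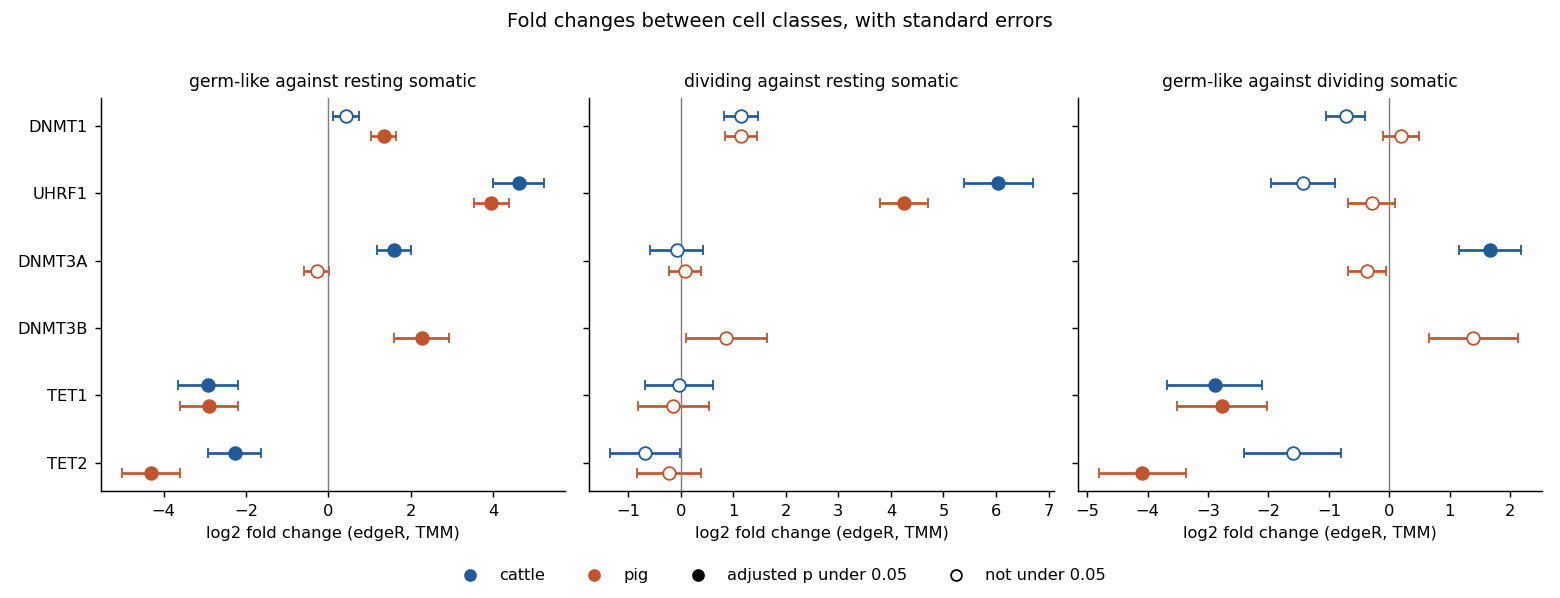
Log2 fold change of each member (horizontal position with bars of ± 1 SE) in the comparisons of germ-like, dividing and resting cells for cattle and pigs, with filled points where the adjusted p was under 0.05. UHRF1 is 3.96 or more above resting cells in germ-like cells of both species, TET1 and TET2 lie at -2.28 or below, and DNMT3A is at 1.60 in cattle and -0.28 in pigs.

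Whether DNMT1 and UHRF1 also follow division among germ-like cells could not be read from the rule used for somatic cells. Of the germ-like cells, 91.2% in cattle and 82.3% in pigs held UMIs of at least 3 division genes. These shares are not rates of division, since the rule counts genes detected and germ-like cells were deeper than somatic cells. The rule left 23 resting germ-like cells in cattle and 169 in pigs, 162 of them in pig 1. No member was called on these sums, beside 0.201% of 13933 genes called higher in pigs (28 genes, with 3 called lower) and 0 of 11570 called either way in cattle, where 824 genes had an unadjusted p under 0.05 in edgeR and DESeq2 also called 0 genes, with 351 under 0.05 unadjusted. The germ-like cells of each animal were therefore ranked by the share of division genes in their UMIs and the lowest and highest terciles compared, a choice made after the data had been seen. Both terciles come from the same animals, but they were tested without the animal as a block. A missed call between them is therefore not the result of a paired test.

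In pigs DNMT1 was at 127, 111 and 105 CPM in the lowest tercile of animals 1, 2 and 3 and at 379, 355 and 362 CPM in the highest. UHRF1 was at 14.1, 16.5 and 20.5 CPM in the lowest and at 55.6, 84.1 and 99.1 CPM in the highest tercile. Both rose in every animal with no overlap. The log2 fold changes were 1.69 ± 0.21 (adjusted p = 0.00148) for DNMT1 and 2.20 ± 0.30 (adjusted p = 0.0025) for UHRF1, so that 2 members were higher, beside 1.53% of 13137 genes. DNMT3A went the other way, from 38.2, 68.4 and 41.8 CPM in the lowest to 12.5, 31.5 and 13.9 CPM in the highest tercile, a difference of -1.36 ± 0.36 (adjusted p = 0.0967) that was not called. The terciles were cut across 5 germ-like clusters of the pig, whose levels also differed. Mean DNMT1 was 41.2 CPM in cluster 10 and 345 and 400 CPM in clusters 16 and 7. The mix of clusters may differ between terciles, and its part in these differences was not tested.

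In cattle DNMT1 was at 112, 75.8 and 65.0 CPM in the lowest and 127, 151 and 140 CPM in the highest tercile, and UHRF1 at 44.6, 43.7 and 63.6 against 180, 101 and 124 CPM. The highest tercile was above the lowest in each animal for both genes. Neither was called without the animal as a block, with 0.59 (adjusted p = 0.863) for DNMT1 and 0.97 (adjusted p = 0.56) for UHRF1, and a paired test was not run. The background was only 0.0188% of 10625 genes, that is 2 genes.

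**Figure D3:**
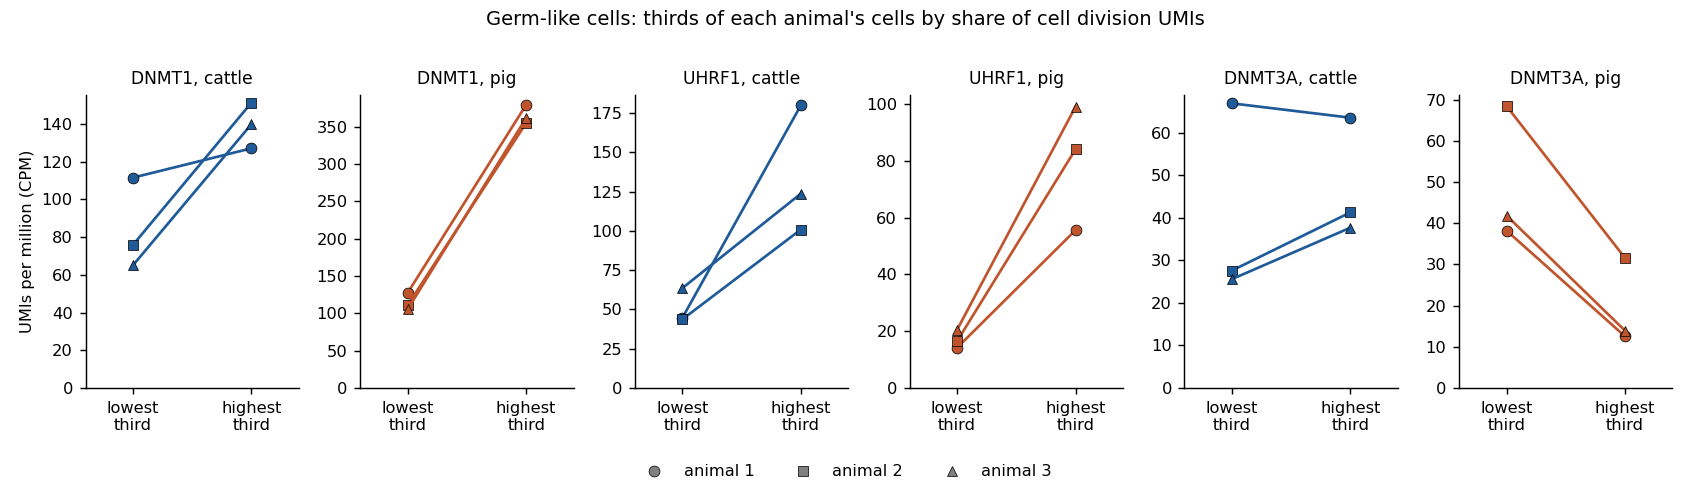
DNMT1, UHRF1 and DNMT3A (CPM, vertical axis) in the germ-like cells of each animal with the lowest and the highest share of division UMIs, joined by a line per animal. In pigs DNMT1 goes from 105 to 127 CPM up to 355 to 379 CPM while DNMT3A goes down in all 3 animals.

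DNMT3A, which sets new marks, separated germ-like from somatic cells in cattle and not in pigs. In cattle it was at 54.6, 36.5 and 37.2 CPM in germ-like cells, at 0, 15.03 and 5.96 CPM in dividing and at 5.55, 7.04 and 8.999 CPM in resting somatic cells. No somatic value reached the lowest germ-like value. DNMT3A was higher by 1.60 ± 0.41 (log2, adjusted p = 0.00549) over resting and 1.67 ± 0.51 (adjusted p = 0.0211) over dividing cells. Without cattle 2 the first missed the threshold (adjusted p = 0.0682), and without cattle 2 or 3 the second did (adjusted p = 0.0588 and 0.227). Over all alternatives the adjusted p ran from 2.38e-06 to 0.0682 and from 0.000348 to 0.227.

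In pigs DNMT3A was at 30.8, 52.4 and 27.4 CPM in germ-like, 44.9, 45.2 and 40.6 CPM in dividing and 33.7, 44.4 and 32.1 CPM in resting cells. The 3 classes overlapped. The log2 fold change of germ-like over resting cells was -0.28 ± 0.30 (adjusted p = 0.48), and its sign was positive by library size alone and without pig 3.

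The difference between the species was tested as an interaction over 12734 genes shared by both tables. It was not called for DNMT3A, at -1.48 ± 0.53 (pig minus cattle, log2, adjusted p = 0.0662). With the animal as a block it was called, at -1.46 (adjusted p = 0.00926), and 5 of 15 alternatives called it, with adjusted p from 0.000331 to 0.163. DNMT1 was the 1 member of 7 called, its germ-like over resting difference being larger in pigs by 1.296 ± 0.42 (adjusted p = 0.0439), beside 14.2% of all genes. That call was lost in 9 of 15 alternatives, among them the removal of any 1 of 5 libraries (every cattle library and pigs 1 and 3, adjusted p = 0.0597 to 0.185) and library size alone (0.38, adjusted p = 0.598). Scaling by library size alone also turned the split of all calls, with 21.0% larger in pigs in place of 62.2%. The species difference for TET2 was -1.70 (adjusted p = 0.305) and for UHRF1 -0.25 (adjusted p = 0.899). Species, age and gene annotation differ together, as the version of the counting software may, and cannot be told apart.

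DNMT3B, the second enzyme that sets new marks, was scarce. In cattle 8 UMIs were counted over all cells, 5 of them in germ-like cells, all in cattle 3, with 3 in resting and 0 in dividing somatic cells, which is under the minimum for a test. In pigs 169 UMIs were counted, 126 of them in germ-like cells. The pig levels were 2.93, 8.74 and 7.77 CPM in germ-like, 0, 1.49 and 3.18 CPM in dividing and 0.511, 1.80 and 0.702 CPM in resting cells. Every germ-like value was above every resting value. DNMT3B was higher over resting cells by 2.26 ± 0.68 on the log2 scale (adjusted p = 0.0231). It missed the threshold without any 1 of the 3 pigs, with adjusted p of 0.0542, 0.0685 and 0.0865 without pigs 1, 2 and 3, and ran from 0.00492 to 0.0865 over 12 alternatives.

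Within the pig germ-like cells these UMIs were unevenly spread over 5 clusters, which were formed without the genes described here and are given as a description, having been chosen after their values were seen. The leading genes of cluster 10 were, in order, ELAVL2, PAGE4, STK31, CLGN, NXT1, KRT14, CTXN1, PIWIL4, CCDC73 and MAEL. Among these PIWIL4 is a partner of small RNAs that guide methylation in fetal germ cells. Its 212 cells (115, 61 and 36 in animals 1, 2 and 3) held 52 of the 126 germ-like UMIs of DNMT3B. DNMT3B stood there at 17.6, 38.7 and 63.4 CPM, above each other germ-like cluster of the same animal among sums of at least 10 cells. In the same sums DNMT3A was highest there too, at 52.9, 96.8 and 89.8 CPM. DNMT1, in contrast, was at 22.1, 64.5 and 37.0 CPM and UHRF1 at 13.2, 19.4 and 26.4 CPM.

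Cluster 7 was led by TEX101, and SYCP1, a component of the synaptonemal complex of meiosis, was also among its leading genes. Its 101 cells (7 of them from pig 2) held DNMT1 at 497, 356 and 346 CPM, DNMT3A at 11.04, 0 and 14.3 CPM, and DNMT3B at 0, 0 and 8.1 CPM. Cluster 16 (524 cells, 75% of pig 3) had DNMT1 at 285, 415 and 334 CPM and DNMT3A at 14.3, 24.8 and 17.4 CPM. In clusters 7 and 16 DNMT1 was high and DNMT3A low, the reverse of cluster 10, in each of the 3 pigs. DNMT3B did not follow this split. Cluster 16 held it at 3.56 to 17.7 CPM, with 58 UMIs beside 52 in the smaller cluster 10. Cluster 8 (353 cells) lay between cluster 10 and clusters 7 and 16 for DNMT1 and DNMT3A. It held DNMT1 at 238, 209 and 140 CPM and DNMT3A at 23.8, 45.7 and 35.6 CPM. Its DNMT3B was low, at 2.0 CPM or less. Cluster 5 (378 cells) came to 97.6% from pig 1, where DNMT1 was at 243 CPM and DNMT3A at 32.0 CPM.

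**Figure D4:**
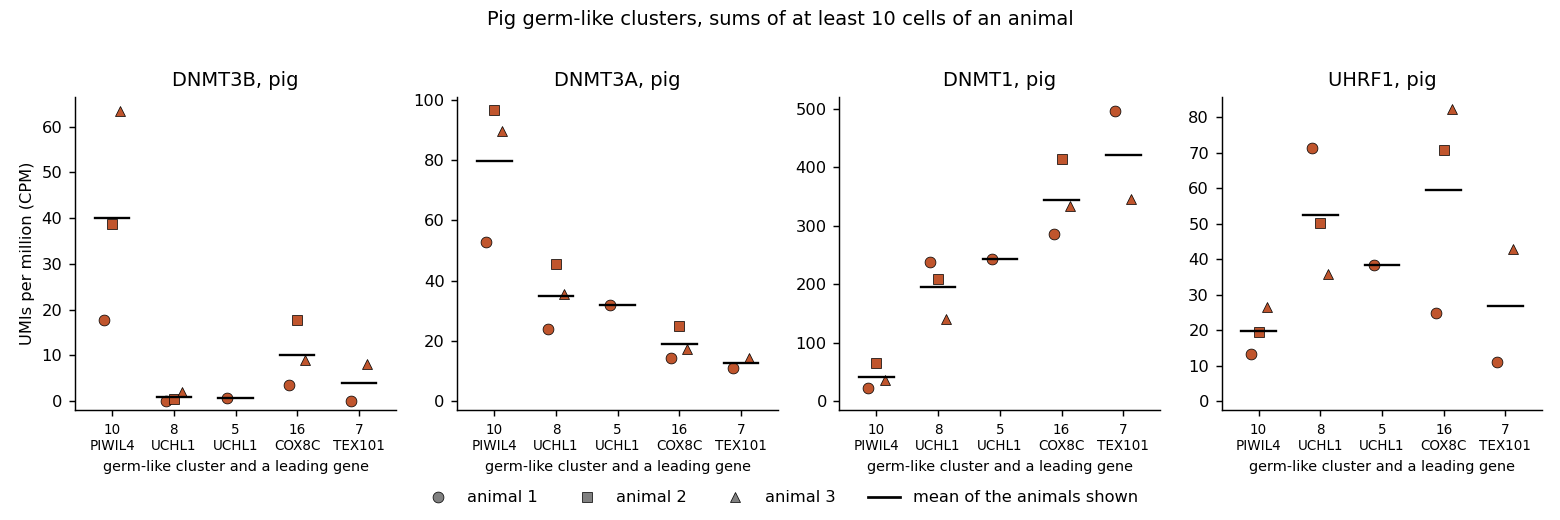
DNMT3B, DNMT3A, DNMT1 and UHRF1 (CPM, vertical axis) in the 5 germ-like clusters of the pig, 1 point per animal for sums of at least 10 cells. Cluster 10, marked with PIWIL4 although ELAVL2 is its first leading gene, has the highest DNMT3B and DNMT3A and the lowest DNMT1 in every animal. Cluster 7, led by TEX101, has DNMT1 at 346 to 497 CPM.

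Of the TET genes, which oxidise the mark, TET1 and TET2 were lower in germ-like than in resting cells. TET1 in cattle was at 0, 4.57 and 3.75 CPM in germ-like, 0, 22.5 and 19.2 CPM in dividing and 3.82, 15.2 and 26.7 CPM in resting cells of animals 1, 2 and 3. In pigs it was at 1.47, 2.91 and 0.431 CPM, 8.97, 9.45 and 8.82 CPM, and 3.58, 14.4 and 8.90 CPM. Among these classes germ-like cells had the lowest value within every animal, level with dividing cells at 0 in cattle 1. In cattle 711 of the 832 resting UMIs of TET1 were in myoid-like cells. Resting Sertoli-like cells of cattle held TET1 at only 3.60 to 4.69 CPM, a range that overlaps the germ-like values. In pigs they held at least 4.44 CPM, above every germ-like value. Germ-like against Sertoli-like cells was not tested in either species. The log2 fold change of germ-like over resting cells was -2.93 ± 0.72 (adjusted p = 0.00413) in cattle, and in pigs -2.91 ± 0.71 (adjusted p = 0.00932). Both missed the threshold without animal 3 of their species, with adjusted p of 0.118 in cattle and 0.0684 in pigs. Over 12 alternatives the adjusted p ran from 8.58e-13 to 0.118 and from 0.000586 to 0.0684. Against dividing cells the values were -2.89 ± 0.79 (adjusted p = 0.0113) and -2.77 ± 0.75 (adjusted p = 0.021), the first lost without cattle 2 or 3 (adjusted p = 0.101 and 0.131) and the second without any 1 pig (0.0723, 0.0685 and 0.155). The animal with the lowest TET1 in cattle somatic cells was cattle 1, whose resting level was 3.82 CPM beside 26.7 in cattle 3.

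TET2 in pigs was at 0.489, 2.91 and 1.38 CPM in germ-like cells, at 0, 30.3 and 31.1 CPM in dividing and at 11.7, 34.2 and 36.5 CPM in resting cells. Pig 1 held 0 UMIs of TET2 in its dividing cells, which is its smallest sum (111444 UMIs). The log2 fold change of germ-like cells was -4.31 ± 0.71 (adjusted p = 0.00147) over resting cells, called in all 12 alternatives, and -4.09 ± 0.72 (adjusted p = 0.00375) over dividing cells, which was lost without pig 2 (adjusted p = 0.0502). In cattle TET2 was low in every class, at 0, 0.761 and 1.88 CPM in germ-like, 0, 1.88 and 3.41 CPM in dividing and 3.82, 3.45 and 4.15 CPM in resting cells. It differed by -2.28 ± 0.65 (adjusted p = 0.00964) between germ-like and resting cells, lost without cattle 2 or 3 (adjusted p = 0.137 and 0.0863), by library size alone (0.0644) and by DESeq2 (0.067). Against dividing cells it was not called (-1.60 ± 0.80, adjusted p = 0.132). Free RNA of the cattle libraries held TET1 at 5.45 CPM and TET2 at 1.15 CPM.

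TET3 was close to absent at this depth, with 12 UMIs in cattle, 2 of them in germ-like cells, and 2 UMIs in pigs, and it was called in no comparison of cattle cells and had too few UMIs for a test in pigs.

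Resting cells are a mixture of types, so the members were also measured by cell type, as means ± SD over 3 animals. For DNMT1 in pigs the order was germ-like (226 ± 21.7 CPM), lymphocyte-like (134 ± 19.5), myoid-like (133 ± 26.5), endothelial-like (126 ± 37.4), macrophage-like (101 ± 27.7), Sertoli-like (84.9 ± 30.6) and Leydig-like (57.9 ± 9.87). Germ-like cells stood apart by more than the spread, and the types from lymphocyte-like to macrophage-like did not. These types pool dividing and resting cells. All dividing somatic cells of pigs together held DNMT1 at 194 ± 58.5 CPM. This mean is below the lowest germ-like value (201 CPM), but the range of dividing cells, 150 to 260 CPM, covers that of germ-like cells. In endothelial-like cells pig 1 gave 6 cells. In cattle macrophage-like (122 ± 74.3 CPM), germ-like (111 ± 20.1) and lymphocyte-like cells (94.0 ± 21.7) did not differ beyond their spread, and DNMT1 was lower in myoid-like (51.6 ± 7.02), endothelial-like (46.4 ± 20.9), Sertoli-like (33.5 ± 9.13) and Leydig-like cells (25.3 ± 8.23), with neighbours in that order again within the spread. DNMT3A in cattle was 42.8 ± 10.2 CPM in germ-like cells and at most 11.3 CPM in the mean of any somatic type. In pigs DNMT3A was highest in myoid-like cells (65.6 ± 20.5 CPM) and lowest in macrophage-like cells (19.0 ± 8.38 CPM).

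TET1 had its highest mean in myoid-like cells of both species, at 4.93, 30.4 and 48.9 CPM in cattle and 9.82, 29.5 and 21.7 CPM in pigs. The spread between animals was wide, and animal 1 was lowest in both species. TET2 in pigs was 35.9 ± 16.02 CPM in myoid-like, 32.1 ± 19.7 in macrophage-like and 1.59 ± 1.23 in germ-like cells, and stood at 168, 65.9 and 43.2 CPM in endothelial-like cells, where pig 1 gave 6 cells. In cattle the highest mean of TET2 was in Leydig-like cells, 6.08 ± 1.70 CPM.

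**Figure D5:**
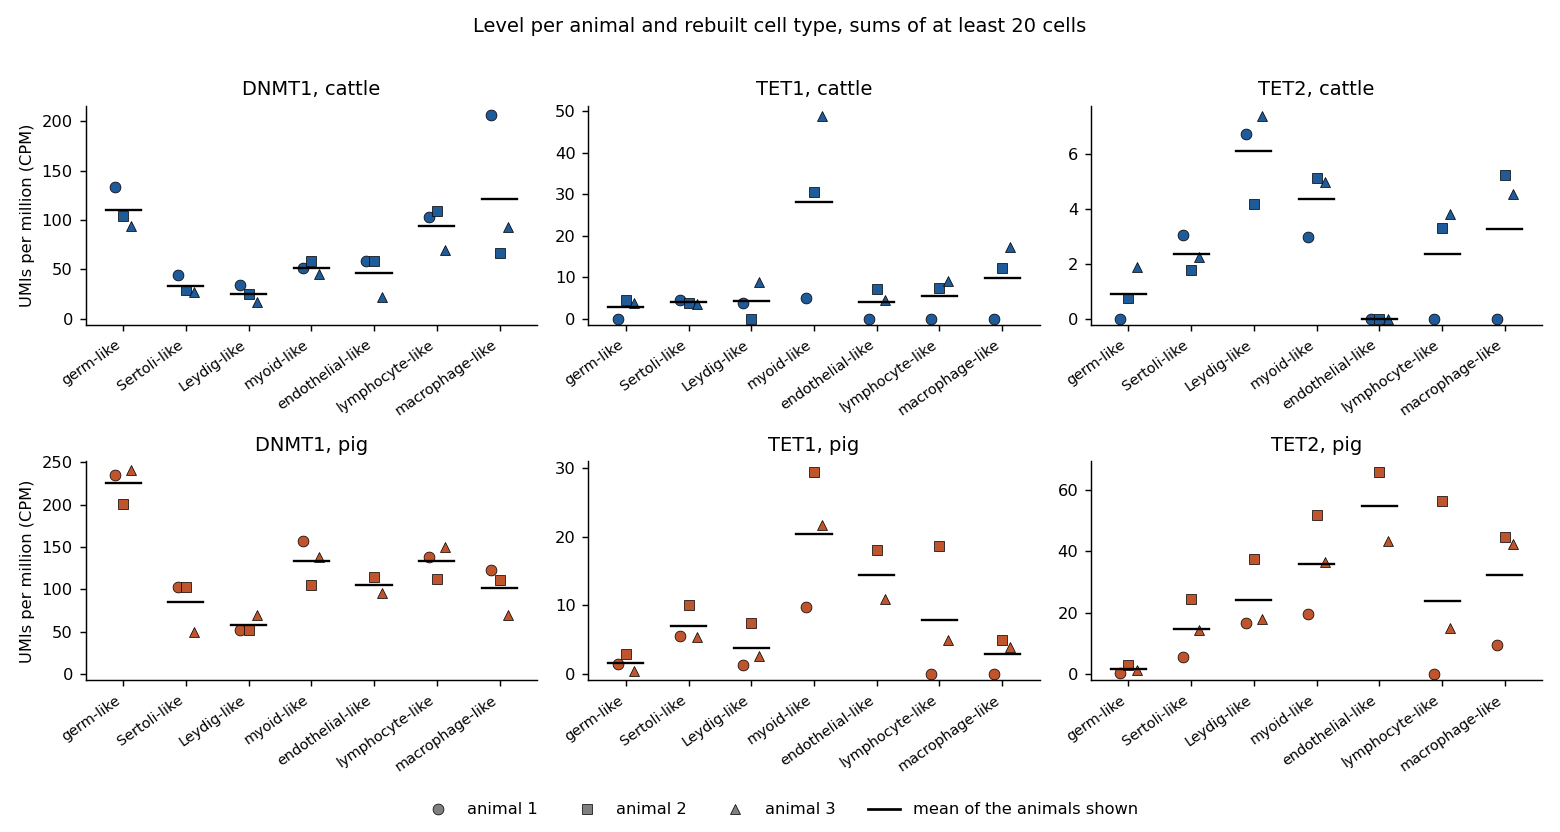
DNMT1, TET1 and TET2 (CPM, vertical axis) by cell type in cattle and pigs, 1 point per animal for sums of at least 20 cells with a bar at the mean of the animals shown. DNMT1 is highest in germ-like cells of pigs (226 ± 21.7 CPM), whereas TET1 and TET2 are low there and TET1 is highest in myoid-like cells.

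The other genes of the pathway were described by 4 lists of 52 genes in all. Of 18 partners of the methylation machinery 15 were tested between germ-like and resting cells in cattle, where 7 rose and 1 fell with a median log2 fold change of 0.88. In pigs 16 were tested, 9 rose and 0 fell, and the median was 1.38. Over all genes 27% rose and 22.4% fell in cattle and 19.3% and 18.7% in pigs, and in cattle the list's median is about as large as the 0.86 by which library size alone moved the median gene. HELLS, a remodeller that DNA methylation needs across heterochromatin, was at 102 ± 29.96 against 4.13 ± 1.72 CPM in cattle (3.71 ± 0.46, adjusted p = 2.54e-05) and at 205.5 ± 5.20 against 19.97 ± 3.10 CPM in pigs (3.11 ± 0.28, adjusted p = 0.000153). CDCA7, which recruits HELLS, was higher in pigs by 3.14 ± 0.56 (adjusted p = 0.00208), and its relative CDCA7L in cattle, at 224 ± 2.75 against 24.3 ± 2.31 CPM. MORC1, which silences transposons in male germ cells, was at 42.3 ± 25.1 against 0.273 ± 0.237 CPM in cattle and at 6.39 ± 4.83 against 0.078 ± 0.135 CPM in pigs. CTCFL, a germ line relative of CTCF, was higher in pigs, at 2.99 ± 1.58 against 0.078 ± 0.135 CPM, and was not matched in the cattle table. ZFP57, which protects imprints, was lower in germ-like than in resting cells of cattle, at 0.0893 ± 0.155 against 1.95 ± 0.791 CPM (adjusted p = 0.00983).

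Between dividing and resting somatic cells 3 partners were higher in cattle and 1 in pigs, with 0 lower. PCNA, the clamp of replication that also binds DNMT1, was higher by 2.59 ± 0.35 (adjusted p = 0.000585) in cattle, and in pigs 2.44 ± 0.30 (adjusted p = 0.00138). HELLS was higher by 2.80 ± 0.49 (adjusted p = 0.00571) and the ligase LIG1 by 1.69 ± 0.36 (adjusted p = 0.0268) in cattle. Germ-like cells of cattle held 3 partners at a higher and 2 at a lower level than dividing cells, and those of pigs 5 at a higher level and 0 at a lower. The shares over all genes were 18.3% and 17.2% in cattle and 11.8% and 13.8% in pigs, so the cattle counts lie near the background.

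Of 11 partners of demethylation 9 were tested in the germ-like and resting cells of cattle, of which 2 rose and 5 fell (median -0.95). Of the 10 tested in pigs 2 rose and 2 fell (median -0.83), which is near the 19.3% and 18.7% of all genes. In cattle 27% of all genes rose and 22.4% fell, and the scaling by library size alone moved the median gene by 0.86, about the size of the list's median. NEIL2, a glycosylase of base excision repair, was higher in both species, by 3.05 ± 0.36 (adjusted p = 1.51e-05) in cattle, and in pigs 1.27 ± 0.41 (adjusted p = 0.0296). GADD45B was lower in both, at log2 fold changes of -3.86 ± 0.62 (adjusted p = 0.000185) and -3.02 ± 0.57 (adjusted p = 0.00269). OGT, the O-GlcNAc transferase that binds TET proteins, was also lower in both, at -2.82 ± 0.46 (adjusted p = 0.000223) and -2.07 ± 0.48 (adjusted p = 0.00749). UNG was higher in pigs by 2.12 ± 0.46 (adjusted p = 0.00529) and GADD45A lower in cattle at -1.99 ± 0.34 (adjusted p = 0.000321). Mean CPM went the same way for UNG in cattle (134 against 34.0). It also did so for GADD45A in pigs (46.0 ± 8.96 against 102 ± 86.0), where the spread was wide. No gene of this list was called between dividing and resting somatic cells of either species.

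Of 9 readers of methylated DNA 6 were tested in cattle, of which 1 rose and 1 fell in germ-like cells, and 8 in pigs, of which 1 rose and 2 fell. These counts are near or below the shares over all genes (27% and 22.4% in cattle, 19.3% and 18.7% in pigs). ZBTB38 was lower in germ-like cells of both, at -1.77 ± 0.43 (adjusted p = 0.00366, and 0.0799 by library size alone) in cattle, and in pigs -2.57 ± 0.41 (adjusted p = 0.00126). MBD2 was lower in pigs at -2.34 ± 0.40 (adjusted p = 0.0018) and was not matched in the cattle table. Higher were MBD1 in cattle (1.39 ± 0.45, adjusted p = 0.0202) and ZBTB33 in pigs (1.53 ± 0.51, adjusted p = 0.0367). Mean CPM was also higher for MBD1 in pigs (39.9 against 21.9) and for ZBTB33 in cattle (19.97 against 11.3). Of 14 genes that make or recycle the methyl donor 14 were tested in cattle, of which 2 rose and 3 fell, and 11 in pigs, of which 0 rose and 1 fell, again near or below those shares. MAT2A, which makes S-adenosylmethionine, was lower in cattle at -1.99 ± 0.35 (adjusted p = 0.000364). AHCYL1 was lower in both, at -1.61 ± 0.42 (adjusted p = 0.00569, and 0.13 by library size alone) in cattle, and in pigs -1.52 ± 0.45 (adjusted p = 0.022). AHCYL2 was lower in cattle at -1.89 ± 0.49 (adjusted p = 0.00557, and 0.0871 by library size alone). In pigs the means of MAT2A and AHCYL2 were also lower in germ-like cells, but within their spread. The median over all genes tested was 0.09 in cattle and 0.03 in pigs.

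The genes whose levels followed each member most closely were found by Pearson correlation of log2(CPM + 10) over 24 cattle and 26 pig sums per animal, cell type and division state, among 10154 and 11451 genes. Sums of 1 library share its depth, and the sums were split by division state, so these values describe the pattern and carry no test. DNMT1 lay closest to MCM5 (r = 0.887), ORC6 (0.855) and CMC2 (0.854) in cattle and to CENPH (0.934) and RPA2 (0.907) in pigs, of which MCM5 and ORC6 act in the licensing of replication origins and RPA2 binds single-stranded DNA. UHRF1 lay closest to PTTG1 (0.969), CENPW (0.964) and MCM5 (0.962) in cattle and to NDC80 (0.959), PCLAF (0.959) and CDCA8 (0.956) in pigs. NDC80 and PCLAF are on the list of division genes that split the sums. For DNMT3A the closest were FAM149B1 (0.890), KDM5A (0.888) and DCAF15 (0.883) in cattle and EHBP1 (0.839), RBMS3 (0.838) and TEAD1 (0.818) in pigs, and no gene was shared between the species. Among the genes closest to DNMT3B in pigs were SPRTN (0.833) and ONECUT2 (0.792). CCDC102B (0.834) and SFXN1 (0.825) were among the genes closest to TET1 in cattle, and TFPI2 (0.850) and HMCN1 (0.839) in pigs. TET2 lay closest to PLA2R1 (0.806), POLK (0.789) and PRKAR2B (0.783) in cattle and to TNFRSF1A (0.913), TPM4 (0.901) and FCGRT (0.888) in pigs.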

How the data were processed

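Single-cell libraries (10x Genomics) of 3 cattle and 3 pig testes were analysed from the deposited matrices of raw UMI counts per gene and barcode, which the authors made with Cell Ranger 2.1.0 per the labels, on ARS-UCD1.2 and Sscrofa11.1, without normalization. The headers of the pig matrices name another software version than the labels. The cattle files hold every barcode and the pig files those with at least 500 UMIs. Library totals ran from 5805223 to 53325608 UMIs in cattle and from 6245189 to 40099873 in pigs.

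Barcodes were kept above the UMI count at percentile 99 of the top 3000 divided by 10, and at 200 genes or more, doublets were removed, and cells were clustered without the methylation genes (scanpy 1.11.5, Leiden resolution 1, igraph 0.11.9). Clusters were named from at least 3 markers. Those with fewer, or with more leading genes among the markers of another type, were left unnamed. Of 23 cattle clusters 13 and of 27 pig clusters 11 held over 90% of their cells from a single library. Counts were summed per animal and class, genes with at least 10 counts kept, and tested with edgeR 4.0.16 (quasi-likelihood, TMM, Benjamini-Hochberg at 0.05, R 4.3.3), all classes of a species in 1 fit. DESeq2 1.42.0, other scalings, filters, cell calls and class rules, and leaving out each animal were alternatives. SE is the log2 fold change over the square root of F.

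Sums of 1 animal deviated together (correlations of deviations from class means of 0.245 to 0.553 in cattle and 0.256 to 0.807 in pigs), so the animal pairs them. Genes named besides the members were the up to 4 called genes of each list with the largest change and the 3 genes most correlated with each member of at least 100 UMIs. A few genes that this rule names are not reported here. The members and lists were chosen with earlier results of these data known. The split of germ-like cells into terciles and that of dividing cells by phase were added after the data had been seen.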

Additional observations from a re-analysis of the deposited data

Results flagged for a closer look

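DNMT1 differed between the species in a test of the difference itself. Its germ-like over resting difference was larger in pigs by 1.296 on the log2 scale (edgeR adjusted p = 0.0439, range 0.0051 to 0.598 over 15 alternatives), a call that 9 of the 15 did not make.

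Signal for the members was also found in cattle barcodes with at most 50 UMIs, which entered no comparison and hold free RNA. Summed over the 3 libraries, DNMT1 was at 36.1 CPM there, UHRF1 at 13.8 CPM, TET1 at 5.45 CPM, DNMT3A at 4.30 CPM and TET2 at 1.15 CPM, and DNMT3B and TET3 were at 0. UHRF1 in these barcodes (13.8, 15.2 and 10.8 CPM in libraries 1, 2 and 3) was above its level in resting somatic cells of the same libraries (4.86, 1.41 and 0.970 CPM).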

How the results depend on the processing

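The count of members called between dividing and resting somatic cells, 1 in each species, became 2 in cattle under DESeq2, library size alone, the replicate block, the cut of 5 division genes and dividing clusters, and 0 within Sertoli-like cells. In pigs it became 2 under DESeq2 and the replicate block and 0 by dividing clusters, where pig 3 gave 1 dividing cell. Between germ-like and dividing cells the 2 in cattle became 4 under the replicate block and the cut of 5 division genes and 0 to 3 with 1 animal left out. The 2 in pigs became 0 by dividing clusters, again with 1 dividing cell of pig 3, and 0 to 1 with 1 animal left out. Between germ-like and resting cells the 4 in cattle became 2 to 4, and the 5 in pigs 3 to 4, with 1 animal left out. Among germ-like cells of pigs the 0 became 2 by terciles. The 1 species difference became 0 without a filter on low counts, 2 under the replicate block and from barcodes with at least 500 UMIs, and 0 to 1 without 1 library. Beyond the calls named beside the results, the replicate block changed no other call of a member.

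Of the refits of single members, 447 kept direction and side of the threshold, 33 lost the call, 24 gained one and 31 changed sign. The cause was not tested. Changes of sign, in log2, were among values that were not called. In dividing against resting somatic cells of cattle, within Sertoli-like cells DNMT1 was at -0.16, DNMT3A at 0.20 and TET1 at 0.53; by library size alone DNMT3A was at 0.15 and TET1 at 0.18. DNMT3A was at 0.077 from 5 division genes and 0.33 by dividing clusters, and TET1 at 0.0062 by RLE and 0.058 from 500 UMIs. Leaving out 1 animal gave -0.71 to 0.54 for DNMT3A and -0.27 to 0.44 for TET1. In pigs DNMT3A was at -0.10 from 500 UMIs, -0.026 from 5 division genes, -0.15 by dividing clusters and -0.14 within myoid-like cells, and DNMT3B at -0.069 within Sertoli-like cells. Leaving out 1 animal gave -0.11 to 2.02 for DNMT3B and -0.49 to 0.35 for TET1.

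In germ-like against dividing cells of pigs UHRF1 was at 0.21 by dividing clusters and -0.47 to 0.22 with 1 animal left out, and DNMT3A at -0.61 to 0.025. Against resting cells DNMT3A was at 0.0013 by library size alone and -0.41 to 0.055 with 1 animal left out. Among germ-like cells of cattle, dividing against resting, DNMT1 was at -0.12 by DESeq2, -0.18 by RLE, -0.22 by library size alone and -0.62 to 9.79 with 1 animal left out, the last depending on the prior count. Among those of pigs DNMT3A was at -0.025 by DESeq2, -0.034 from 500 UMIs, -1.36 by terciles and -0.27 to 0.59 with 1 animal left out.

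With 3 animals a species and down to 112367 UMIs in a cattle sum, DNMT3B, TET2 and TET3 rest on few UMIs. In germ-like cells TET1 does so too, with 20 UMIs in cattle and 18 in pigs, beside 8 and 27 of TET2. Dividing and germ-like cells were deeper than resting somatic cells, cell types were rebuilt from markers, and free RNA was measured in cattle only.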

Other observations

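An unnamed pig cluster of 271 cells, 98.9% of them from pig 2, was led by UCHL1, COX8C and ELAVL2 but entered no class. In pig 2 its cells held DNMT1 at 148 CPM, DNMT3A at 44.0, UHRF1 at 29.7, TET2 at 19.8, DNMT3B at 6.61 and TET1 at 6.61 CPM. In the germ-like cells of the same animal DNMT1 was at 201 CPM, DNMT3A at 52.4, UHRF1 at 46.0, TET2 at 2.91, DNMT3B at 8.74 and TET1 at 2.91 CPM.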
